A study of Xenopus laevis with 22 samples.

Results

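Axonemal dyneins and the proteins that assemble them were followed in animal caps of Xenopus laevis, pieces of embryonic ectoderm that were switched towards multiciliated cells. The genes were taken by symbol: axonemal dynein heavy, intermediate and light chains (the dnah, dnai, dnal and dnali symbols, wdr63 and wdr78), the docking protein gene ttc25, and assembly factors (the dnaaf symbols, dyx1c1, lrrc6, pih1d3, spag1 and zmynd10). They came to 25 targets with 22 symbols, of 24383 targets with 13475 symbols in all, where a target is a transcript contig to which fragments were assigned. Where 2 targets carry the same symbol they are written with -1 and -2. The 25 targets were 7 heavy chains, 8 intermediate or light chains, 1 docking protein and 9 assembly factors, and all 25 passed the filter on low counts. The docking gene armc4 was listed only in a different target set used for 2 libraries, and no target carried the symbols of the outer arm heavy chains dnah5, dnah8, dnah11 or dnah17. In that different set the target called dnaaf1 here carries the symbol rcc1-b, and the target called dnah2 carries the symbol dnah6. Which symbol is right was not tested, and the names dnaaf1 and dnah2 are used below.

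The RNA groups were caps with dnE2f4, from embryos injected with RNA for Multicilin-HGR and for a dominant-negative E2f4, and caps with Multicilin-HGR alone, called Multicilin caps below. Multicilin-HGR joins Multicilin, encoded by mcidas, to the hormone-binding part of the human glucocorticoid receptor, so that 20 µM dexamethasone, added to all of these caps at mid-stage 11, activates it. Caps were cut at stage 10 and kept at 22 °C. They were collected 3, 6 and 9 h after induction, at about stages 13, 16 and 18, with 3 libraries per group and 20 caps per library. For ChIP-seq, caps carried E2f4-GFP with Multicilin-HGR or E2f4-GFP without it, and about 300 caps per condition were taken at 6 h. The labels do not tie the dexamethasone step to the caps with E2f4-GFP alone. Every RNA library carried Multicilin-HGR, so changes with time hold the effects of Multicilin and of ordinary development, which cannot be told apart. Injected RNA is spread through the caps and is not limited to a cell type by a promoter.

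Motile cilia beat because rows of dynein arms on the outer doublet microtubules of the axoneme pull on the neighbouring doublet. Heavy chains are the ATP-driven motors, intermediate and light chains hold and tune them, and outer arms are fixed to the doublet through docking proteins. The arms are put together in the cytoplasm by assembly factors and chaperones before transport into the cilium. Loss of an assembly factor can leave cilia without some or all of their arms. In multiciliated cells Multicilin acts with E2f4 and its partners to start the gene programme of centriole amplification, and dominant-negative E2f4 is used to block that activity.

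The libraries held 9159519 to 38099850 estimated fragments. The e2f4 transcript, which includes the injected dnE2f4 RNA, stood at 1235 to 11078 CPM (counts scaled to the library total) in 8 of 9 libraries labelled dnE2f4 and at 14.1 to 36.1 CPM in 8 of 9 labelled Multicilin. It was opposite to the labels in the pair labelled replicate 2 at 9 h, with 14.2 CPM in the library labelled dnE2f4 and 1427 CPM in the library labelled Multicilin. Both were left out of the fit. Replicate 1 of dnE2f4 at 3 h and replicate 3 of dnE2f4 at 9 h had been scored against 35532 targets. Further gene copies in that set can compete for fragments, and these 2 libraries were left out as well. The fit therefore held 14 libraries: for dnE2f4 2 at 3 h, 3 at 6 h and 1 at 9 h, and for Multicilin 3, 3 and 2. The lone dnE2f4 library at 9 h was taken to vary like the other groups. The tissue label was set beside the levels of marker genes. A symbol is called present where a target carries it, whatever its level, so presence alone says nothing about the tissue. All 10 ectoderm and epidermis symbols were present. Their summed levels were 13530 to 28270 CPM in dnE2f4 caps and 14840 to 24610 CPM in Multicilin caps. All 5 mesoderm symbols were present and summed to 23.2 CPM or less in each library of the fit, tbx6 reaching 13.6 and t 7.13 CPM and myf5 at most 0.165 CPM. Of 5 endoderm symbols 3 were present, pdx1 at 0.0784 CPM or less, gata5 up to 24.3 CPM and a2m up to 179 CPM. Of 5 neural symbols 4 were present, sox3 up to 137 CPM, ncam1 up to 69.8 CPM, nrp1 up to 2.69 CPM and neurog2 up to 0.258 CPM.

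The level of each gene is given first per length, as deposited FPKM (fragments scaled by target length and library total), the only scale here on which genes can be set beside each other. At 3 h the heavy chains were the least abundant class. Their group means ran from 0.266 (dnah6) to 10.2 FPKM (dnah9, a motor of the outer arm) in dnE2f4 caps and from 0.336 (dnah6) to 15.1 FPKM (dnah9) in Multicilin caps. Assembly factors already stood at 12.9 to 85.2 FPKM in dnE2f4 caps and at 17.1 to 115 FPKM in Multicilin caps at that time. Intermediate and light chains stood at 7.69 to 88.7 FPKM in dnE2f4 caps and 10.9 to 120 FPKM in Multicilin caps. The docking gene ttc25 had 75.6 ± 14.8 FPKM in dnE2f4 caps (SD, n = 2) and 97.5 ± 1.68 FPKM in Multicilin caps (SD, n = 3).

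**Figure D1:**
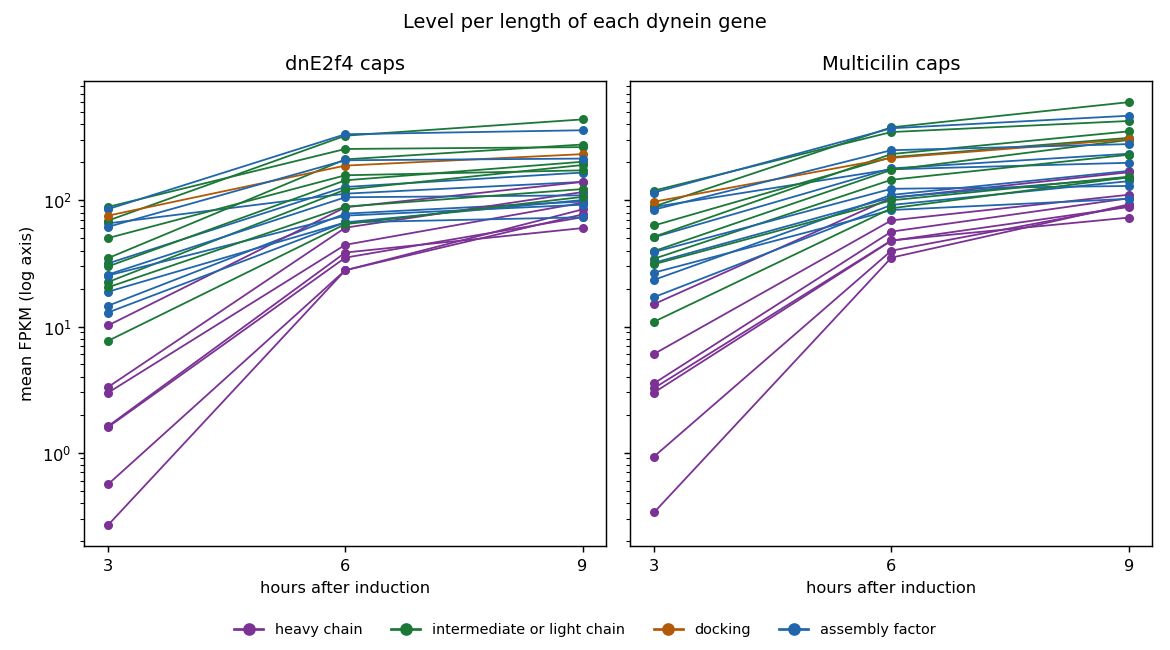
Mean FPKM of each of the 25 targets (log axis) against hours after induction, in dnE2f4 caps at left and Multicilin caps at right, coloured by class. The lines start far apart at 3 h, with the heavy chains lowest, and converge so that at 9 h the highest and lowest targets differ 7.27-fold in dnE2f4 caps and 8.22-fold in Multicilin caps.

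The levels drew together with time. In dnE2f4 caps the highest and the lowest group mean of the 25 targets differed 333-fold at 3 h, 12.0-fold at 6 h and 7.27-fold at 9 h. In Multicilin caps the same ratio was 356 at 3 h, 10.8 at 6 h and 8.22 at 9 h. The 7 heavy chains alone differed 44.8-fold at 3 h, 2.98-fold at 6 h and 2.29-fold at 9 h in Multicilin caps, where they ended at 73.0 (dnah1) to 167 FPKM (dnah9). The most abundant target in Multicilin caps at 9 h was dnali1, an inner arm light intermediate chain, at 600 ± 105 FPKM (SD, n = 2), followed by the assembly factor pih1d3 at 469 ± 97.5 FPKM and the light chain dnal4-2 at 426 ± 101 FPKM. Neighbours in the order of levels mostly could not be separated, since the library ranges overlapped in 16 of 24 neighbouring pairs at 3 h, 23 of 24 at 6 h and 22 of 24 at 9 h in Multicilin caps.

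All 25 targets rose between 3 and 9 h, in both kinds of caps. In dnE2f4 caps 29.0% of the 20043 targets tested were called higher at 9 h, and in Multicilin caps 33.4% were (edgeR quasi-likelihood test, Benjamini-Hochberg adjusted p under 0.05 over all targets). The median log2 fold change of the 25 was 3.05 in dnE2f4 caps and 3.17 in Multicilin caps, against 0.04 and -0.001 over all targets tested. In these bulk samples, more cells of a type and more RNA per cell cannot be told apart.

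The heavy chains moved furthest. Their median log2 fold change from 3 to 9 h was 5.50 in dnE2f4 caps and 5.29 in Multicilin caps, and in Multicilin caps it ran from 3.87 (dnah9) to 8.50 (dnah6). The range for intermediate and light chains in Multicilin caps was 2.29 to 4.21, and for assembly factors 1.62 to 3.52, so that only wdr63 at 4.21 among the other 18 targets passed the lowest heavy chain.

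The largest change was in dnah6, an inner arm motor. In dnE2f4 caps it had 2.17 and 2.98 CPM at 3 h, 390, 332 and 214 CPM at 6 h and 1002 CPM at 9 h. In Multicilin caps it had 2.95, 5.08 and 1.74 CPM at 3 h, 462, 452 and 315 CPM at 6 h, and 1400 and 1068 CPM at 9 h. No library of a later time overlapped a library of an earlier time in either kind of caps. At 3 h these levels rested on 53 and 44 estimated fragments in dnE2f4 caps and on 83, 135 and 24 in Multicilin caps, whereas the 9 h libraries held 32296 in dnE2f4 caps and 22499 and 19156 in Multicilin caps. Its log2 fold change from 3 to 9 h was 8.59 ± 0.53 (SE) in dnE2f4 caps and 8.50 ± 0.42 in Multicilin caps (edgeR adjusted p = 1.51e-07 and 9.47e-09), or 384-fold and 363-fold.

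The inner arm motor dnah2 behaved in a like way, with 9.23 and 7.12 CPM in dnE2f4 caps and 17.8, 16.6 and 7.98 CPM in Multicilin caps at 3 h. At 9 h it had 1443 CPM in dnE2f4 caps and 2284 and 1329 CPM in Multicilin caps, a log2 fold change of 7.42 ± 0.55 in dnE2f4 caps and 6.96 ± 0.43 in Multicilin caps. The outer arm motor dnah9 was the exception in level: it already had 165 and 103 CPM in dnE2f4 caps and 283, 235 and 94.1 CPM in Multicilin caps at 3 h. At 9 h it had 2297 CPM in dnE2f4 caps and 3592 and 2433 CPM in Multicilin caps, and its log2 fold change was the smallest of the heavy chains, at 4.06 ± 0.52 in dnE2f4 caps and 3.87 ± 0.41 in Multicilin caps. The inner arm motors dnah1, dnah7-1, dnah7-2 and dnah10 lay between, at 5.25 to 5.79 in dnE2f4 caps and 4.60 to 5.30 in Multicilin caps.

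Heavy chain targets are 12181 to 13874 bases long, and long targets were low in the libraries of replicate 3. In Multicilin caps at 3 h the 7 heavy chains had a median log2 deviation of -0.96 from their group mean in replicate 3, where the 386 other targets of 8000 bases or more had -0.21 and shorter targets -0.02. At 6 h, the heavy chain deviation in replicate 3 was -0.42 in dnE2f4 caps and -0.31 in Multicilin caps, beside -0.16 and -0.19 for the other long targets. The 386 other long targets had a median log2 fold change from 3 to 9 h of 0.50 in dnE2f4 caps and 0.42 in Multicilin caps. The part of target length in the heavy chain values was not tested.

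**Figure D2:**
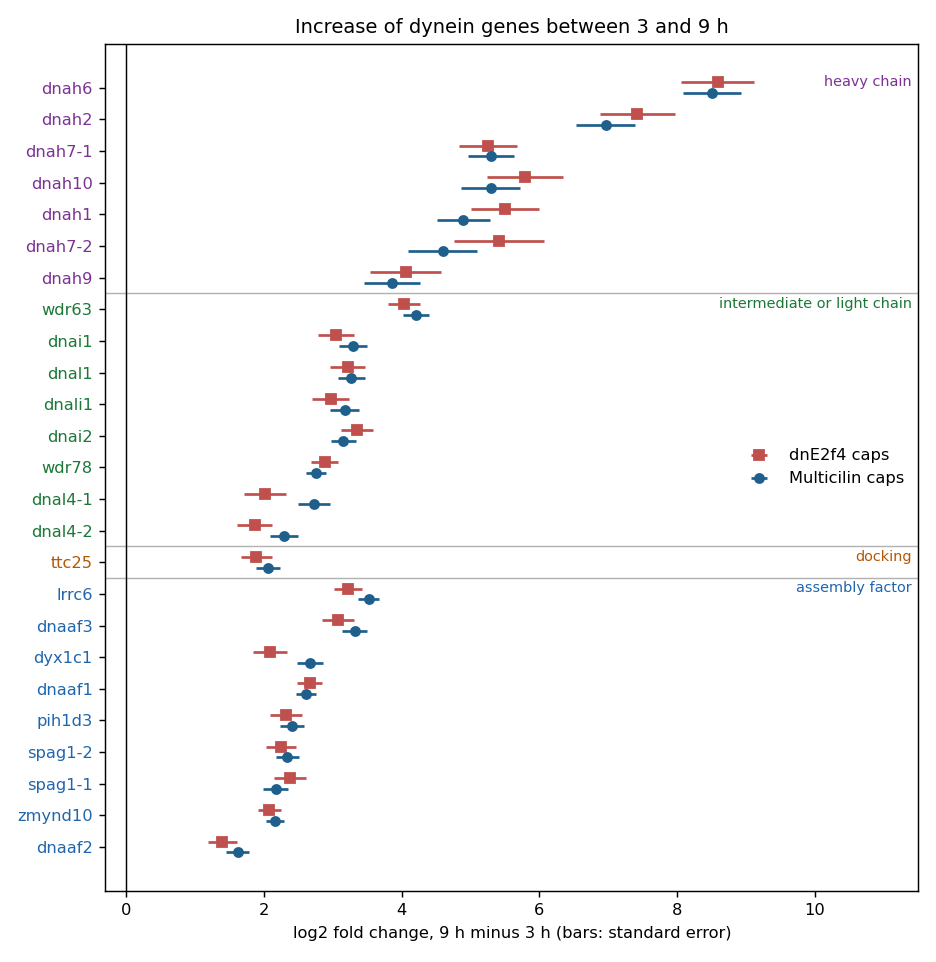
Log2 fold change between 3 and 9 h for each target (bars: standard error), dnE2f4 caps as squares above Multicilin caps as circles, with targets grouped by class. All 25 lie above 0 in both, the heavy chains furthest out, up to 8.59 in dnE2f4 caps and 8.50 in Multicilin caps for dnah6.

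Intermediate and light chains rose with a median log2 fold change of 3.01 in dnE2f4 caps and 3.16 in Multicilin caps. The largest change was in wdr63, an intermediate chain of an inner arm dynein, which had 18.5 and 22.8 CPM in dnE2f4 caps and 28.3, 36.2 and 24.9 CPM in Multicilin caps at 3 h. At 9 h it reached 347 CPM in dnE2f4 caps and 527 and 590 CPM in Multicilin caps, a log2 fold change of 4.04 ± 0.24 in dnE2f4 caps and 4.21 ± 0.19 in Multicilin caps. The outer arm intermediate chains dnai1 and dnai2 changed by 3.05 ± 0.26 and 3.35 ± 0.23 in dnE2f4 caps and by 3.30 ± 0.21 and 3.15 ± 0.18 in Multicilin caps.

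The outer arm light chain dnal1 was similar, at 3.21 ± 0.25 in dnE2f4 caps and 3.27 ± 0.20 in Multicilin caps, and dnali1 had 2.97 ± 0.27 in dnE2f4 caps and 3.17 ± 0.21 in Multicilin caps. The light chain dnal4 had the smallest changes of the class, 1.87 ± 0.25 for dnal4-2 in dnE2f4 caps and 2.29 ± 0.20 in Multicilin caps. Its 2 targets share fragments: 54.6% of the fragments of dnal4-1 and 72.3% of those of dnal4-2 aligned to a single target, so the split between the copies is uncertain. The docking gene ttc25 rose by 1.89 ± 0.23 in dnE2f4 caps and 2.06 ± 0.18 in Multicilin caps.

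Assembly factors rose with a median log2 fold change of 2.33 in dnE2f4 caps and 2.41 in Multicilin caps. The gene dnaaf2, which encodes Kintoun, a factor that works with chaperones in the preassembly of arms, had 146 and 173 CPM in dnE2f4 caps and 238, 229 and 190 CPM in Multicilin caps at 3 h. At 9 h it had 429 CPM in dnE2f4 caps and 690 and 668 CPM in Multicilin caps, the smallest change of the 25, at 1.39 ± 0.21 in dnE2f4 caps and 1.62 ± 0.16 in Multicilin caps (edgeR adjusted p = 0.000135 and 2.25e-06). The zinc finger assembly factor zmynd10 and spag1-1 changed by 2.08 ± 0.17 and 2.38 ± 0.24 in dnE2f4 caps and by 2.16 ± 0.13 and 2.17 ± 0.18 in Multicilin caps. The leucine-rich repeat factor lrrc6, a partner of zmynd10, had the largest change of the class at 3.22 ± 0.20 in dnE2f4 caps and 3.52 ± 0.16 in Multicilin caps, followed by dnaaf3 at 3.07 ± 0.23 and 3.32 ± 0.18. Between 43.7 and 68.1% of the fragments of lrrc6, spag1-1 and spag1-2 aligned to a single target, so these levels may be shared with near-identical copies.

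**Figure D3:**
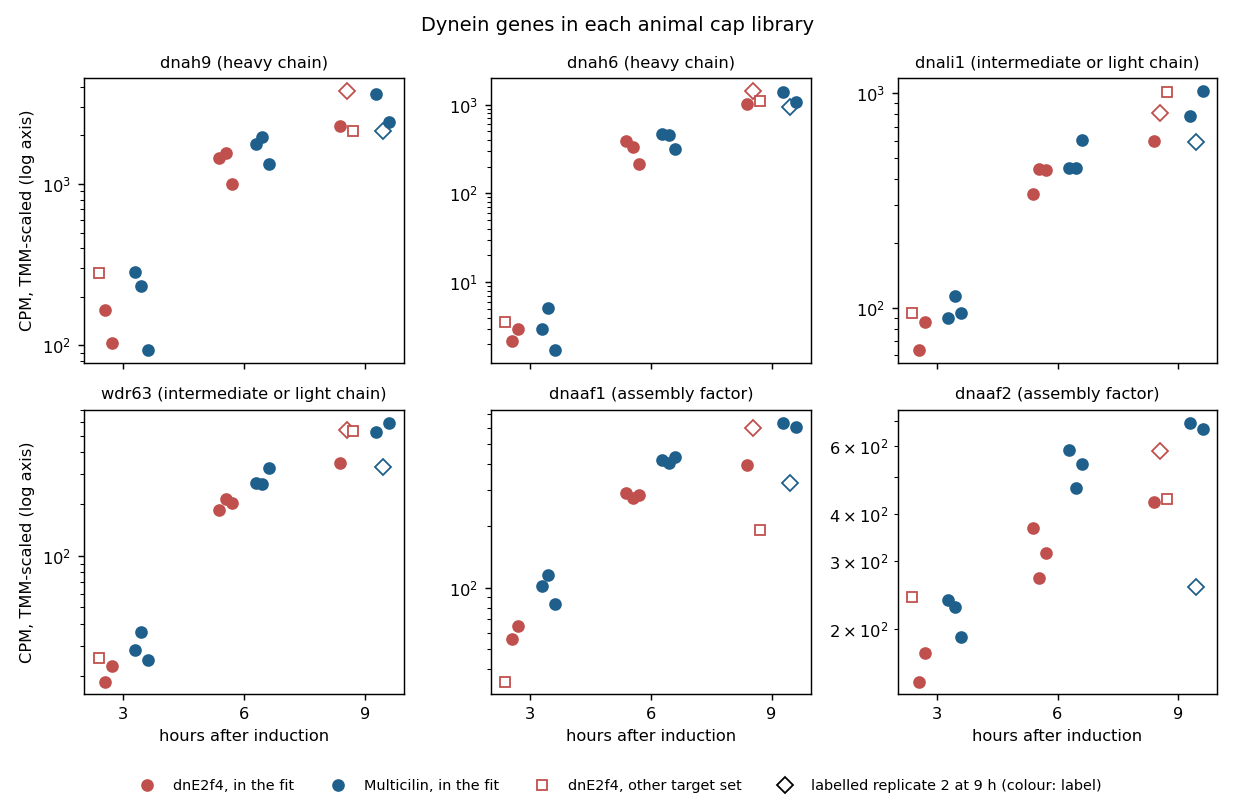
CPM of 6 targets (log axes) in all 18 libraries against hours after induction, dnE2f4 left of Multicilin at each time; open squares are the 2 libraries scored on the other target set and open diamonds the pair labelled replicate 2 at 9 h. The filled points rise with time in each panel, dnah6 by far the most, while dnaaf2 spans the smallest range, and at 9 h the open diamond labelled Multicilin lies below the 1 labelled dnE2f4 in each panel.

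On the log2 scale most of the change had taken place by 6 h. In CPM some targets gained more after 6 h and others before it. In Multicilin caps mean dnah6 was 3.26, 410 and 1234 CPM at 3, 6 and 9 h, and mean dnaaf2 was 219, 531 and 679 CPM. From 3 to 6 h all 25 rose in dnE2f4 caps, where 23.9% of all targets were called higher, and all 25 in Multicilin caps, where 25.7% were. The log2 change by 6 h was 69.2 to 93.2% of that by 9 h in dnE2f4 caps (median 80.9%). In Multicilin caps it was 66.8 to 87.1% (median 77.7%), and the share was lowest for ttc25 there. All 25 were also higher in sign at 9 h than at 6 h in both kinds of caps. The counts from 6 to 9 h below are of targets called higher. From 6 to 9 h, 7 of 25 rose in dnE2f4 caps, where 9.47% of all targets were called higher, and 17 of 25 in Multicilin caps, where 14.3% were. With the replicate number as a block the count was 13 of 25 in dnE2f4 caps (16.7% of all targets) and 24 of 25 in Multicilin caps (23.3%).

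The 17 in Multicilin caps were 4 of 7 heavy chains, 7 of 8 intermediate and light chains, ttc25 and 5 of 9 assembly factors. The class medians of this later change were 1.15, 0.56 and 0.35 for heavy chains, intermediate or light chains and assembly factors in dnE2f4 caps, and 1.08, 0.84 and 0.50 in Multicilin caps. The motor dnah6 rose furthest, by 1.68 ± 0.39 in dnE2f4 caps and 1.61 ± 0.32 in Multicilin caps (edgeR adjusted p = 0.0112 and 0.0033). The counts rest on few libraries, at 9 h 1 of dnE2f4 and 2 of Multicilin. The counts in the 2 kinds of caps were thus made with unequal numbers of libraries. Without replicate 3 of Multicilin at 9 h, which left a single library there, fewer were called in Multicilin caps. Without replicate 2 or replicate 3 of dnE2f4 at 6 h, fewer were called in dnE2f4 caps. Over all targets fewer were called in these fits too.

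The dnE2f4 comparison sets caps with dominant-negative E2f4 beside caps without it. The mcidas transcript, given below, was also lower in the dnE2f4 libraries of the fit at each time. Blocked E2f4 activity and a lower level of Multicilin RNA therefore cannot be told apart here. All 25 targets were lower in sign in dnE2f4 caps at 3, 6 and 9 h, by a median log2 fold change of -0.53 at 3 h, -0.40 at 6 h and -0.56 at 9 h, where all targets tested had medians of -0.01, 0.03 and 0.02. Some heavy chain signs rest on 1 library: without replicate 2 of Multicilin at 3 h dnah6 and dnah7-1 had 0.066 and 0.113 at 3 h, and without replicate 1 of Multicilin at 9 h dnah2 and dnah7-2 had 0.11 and 0.314 at 9 h. With library size as the only scaling dnah7-2 had 0.073 at 9 h. Few differences passed the test. At 3 h 0 of 25 were called lower (0.269% of all targets), at 6 h 3 of 25 (2.57%), and at 9 h 0 of 25 (0.918%). At an edgeR unadjusted p under 0.05 the counts were 17, 11 and 15 of 25, against 7.19, 16.3 and 14.4% of all targets in either direction. At these times 0 of 25 were called higher, against 0.015, 0.868 and 0.215% of all targets. Fitted with DESeq2, 6 of 25 were called lower at 3 h, 8 at 6 h and 9 at 9 h (1.92, 5.07 and 4.23% of all targets).

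The replicate numbers were taken to pair the libraries, from correlations in these same data, since the labels leave their meaning unstated. With the number as a block edgeR called 7 of 25 lower at 3 h (2.8% of all targets), 12 at 6 h (8.91%) and 9 at 9 h (6.38%), the last from the single dnE2f4 library. With a block of its own at each time the counts were 6, 17 and 9 (2.81, 11.7 and 6.82% of all targets). The 12 at 6 h were 7 of 9 assembly factors, 4 of 8 intermediate or light chains and 1 of 7 heavy chains, and no test compared the classes.

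The 3 targets called lower at 6 h without the block were all assembly factors. The gene dnaaf1, for a leucine-rich repeat protein needed for outer and inner arms, had 288, 274 and 281 CPM in dnE2f4 caps and 417, 406 and 434 CPM in Multicilin caps. The 2 sets of libraries did not overlap, and the log2 fold change was -0.57 ± 0.13 (SE, edgeR adjusted p = 0.0302). Kintoun's gene dnaaf2 had 368, 272 and 316 CPM in dnE2f4 caps and 587, 468 and 540 CPM in Multicilin caps, again without overlap, a log2 fold change of -0.73 ± 0.15 (edgeR adjusted p = 0.0179). The partner factor lrrc6 had 196, 174 and 196 CPM in dnE2f4 caps and 264, 248 and 319 CPM in Multicilin caps, without overlap, a log2 fold change of -0.55 ± 0.14 (edgeR adjusted p = 0.0474).

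These calls are near the threshold. Without replicate 1 or 3 of Multicilin at 6 h, or without replicate 2 or 3 of dnE2f4 at 6 h, 0 of 25 were called, and without replicate 2 of Multicilin or replicate 1 of dnE2f4 at 6 h 1 was called. Over all targets the first 4 fits called 433 of 20114, 179 of 20121, 195 of 20020 and 240 of 20112 lower. The last 2 called 296 of 20016 and 494 of 19977, against 516 of 20043 with all 14 libraries. The sign stayed negative in 25 of 25 in each of these 6 h fits.

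The other assembly factors had differences at 6 h of -0.56 ± 0.16 (dnaaf3), -0.55 ± 0.17 (dyx1c1), -0.42 ± 0.15 (spag1-2), -0.35 ± 0.12 (zmynd10), -0.30 ± 0.16 (spag1-1) and -0.24 ± 0.16 (pih1d3), with edgeR adjusted p of 0.078 to 0.541. With the block, the 4 of these named earliest were called. At 3 h the smallest adjusted p of the 25 was that of dnaaf1, which had 56.3 and 64.8 CPM in dnE2f4 caps and 102, 115 and 83.2 CPM in Multicilin caps. Its log2 fold change was -0.72 ± 0.15 without the block (edgeR adjusted p = 0.0685) and -0.71 ± 0.13 with it (edgeR adjusted p = 0.00838).

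At 9 h it was dnaaf3, with 183 CPM in the dnE2f4 library and 298 and 403 CPM in the Multicilin libraries, a log2 fold change of -0.95 ± 0.25 (edgeR adjusted p = 0.0939). With the block it was -0.80 ± 0.16 (edgeR adjusted p = 0.00664). Without replicate 3 of Multicilin at 3 h 4 of 25 were called lower at 3 h, where 199 of 20095 targets were.

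**Figure D4:**
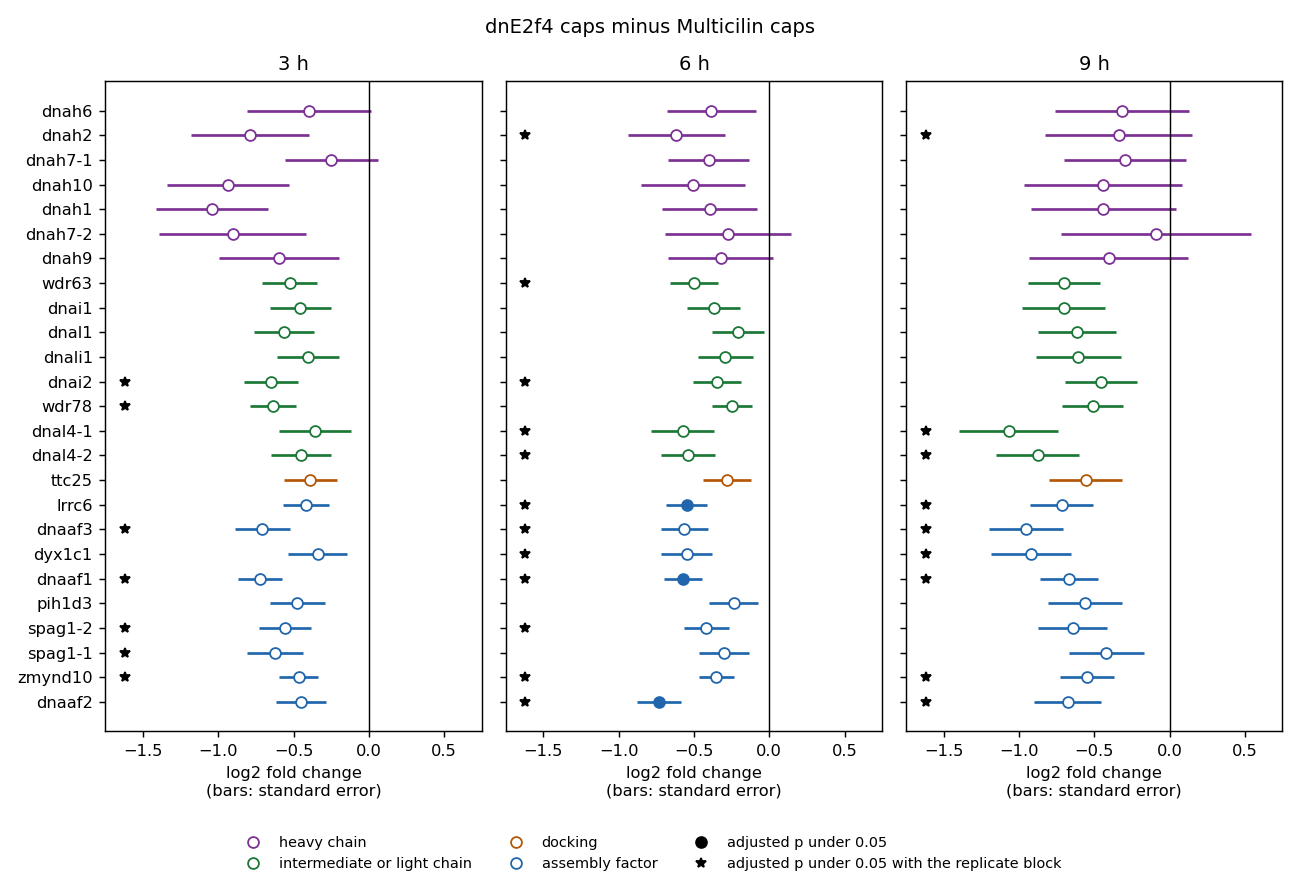
Log2 fold change of dnE2f4 caps over Multicilin caps for each target at 3, 6 and 9 h (bars: standard error), coloured by class; filled points passed the test and stars mark targets that passed with the replicate block. All points lie below 0, the filled ones are dnaaf1, dnaaf2 and lrrc6 at 6 h, and the heavy chains have the longest bars.

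Intermediate and light chains had a median difference of -0.49 at 3 h, -0.36 at 6 h and -0.66 at 9 h, and none was called without the block. The light chain dnal4-1 had the largest at 9 h, with 184 CPM in the dnE2f4 library and 281 and 482 CPM in the Multicilin libraries, a log2 fold change of -1.07 ± 0.33 (edgeR adjusted p = 0.153). With the block it was -0.78 ± 0.18 (edgeR adjusted p = 0.0154). At 6 h its libraries had 145, 155 and 180 CPM in dnE2f4 caps and 194, 228 and 296 CPM in Multicilin caps and did not overlap. The outer arm chain dnai1 overlapped at 6 h, with 378, 419 and 497 CPM in dnE2f4 caps and 515, 469 and 694 CPM in Multicilin caps, and its log2 fold change of -0.37 ± 0.18 was not called. The docking gene ttc25 had differences of -0.39 ± 0.18 at 3 h, -0.28 ± 0.16 at 6 h and -0.56 ± 0.24 at 9 h, also not called.

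Heavy chains had a median difference of -0.79 at 3 h, -0.40 at 6 h and -0.34 at 9 h without the block. Their errors were the widest, with standard errors of 0.31 to 0.49 at 3 h. With the block the medians were -0.569, -0.416 and -0.641, so their order over time depends on the fit. For intermediate or light chains the block gave -0.555, -0.351 and -0.541. The largest was in dnah1 at 3 h, with 19.9 and 17.2 CPM in dnE2f4 caps and 45.6, 51.7 and 17.4 CPM in Multicilin caps. Replicate 3 of Multicilin lay beside the dnE2f4 libraries, and the log2 fold change of -1.04 ± 0.37 was not called (edgeR adjusted p = 0.429). At 6 h dnah9 had 1456, 1560 and 1001 CPM in dnE2f4 caps and 1766, 1954 and 1339 CPM in Multicilin caps, which overlap, and its log2 fold change was -0.32 ± 0.35. Within each replicate number at 6 h the dnE2f4 library of dnah9 was the lower. With the block dnah2 was the only heavy chain called, at -0.64 ± 0.11 at 6 h (edgeR adjusted p = 0.00123) and -0.71 ± 0.17 at 9 h (adjusted p = 0.0179).

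Counted by library, at 3 h all dnE2f4 libraries of the fit lay below all Multicilin libraries for 18 of 25 targets, 2 libraries against 3, where 13.2% of all targets did so, and the 7 that overlapped were the heavy chains. At 6 h, with 3 against 3, this held for 13 of 25, against 11.1% of all targets. The size of the difference did not change detectably with time: of the 3 contrasts of the dnE2f4 effect between times, 0 of 25 targets were called in any by edgeR. Over all targets the contrast of 6 against 3 h called 1 lower (0.00499%), that of 9 against 6 h 0 (0.0%) and that of 9 against 3 h 1 lower (0.00499%). The smallest adjusted p of a target in these contrasts was 0.728.

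The libraries left out of the fit did not all follow it. Replicate 1 of dnE2f4 at 3 h was set beside the Multicilin libraries for 15 targets that had no added copy in its target set. The targets dnaaf1, dnaaf3 and pih1d3 carry the symbols rcc1-b, c19orf51 and cxorf41 in that set and were not among the 15. The dnah2 target carries the symbol dnah6 there and was kept among them. In this library dnaaf1 (34.9 CPM) and dnaaf3 (31.8 CPM) lay below all 3 Multicilin libraries, and pih1d3 (80.3 CPM) lay above them. None of the 15 lay below all 3 Multicilin libraries at 3 h, 5 lay below their mean, and the median ratio to that mean was 1.04. In replicate 3 of dnE2f4 at 9 h 6 of 15 lay below both Multicilin libraries, 12 below their mean, and the median ratio was 0.894. The shares of all targets in these positions are not given here, so the counts for these 2 libraries have no background. With both joined to the fit by target position, the sign was negative for 25 of 25 at each time, with medians of -0.34 at 3 h, -0.41 at 6 h and -0.34 at 9 h, and 0 of 25 were called at any time (0.0812, 1.13 and 1.05% of all targets). Both added libraries are dnE2f4 libraries, and added copies in their target set can lower a target in dnE2f4 caps alone. In these libraries zmynd10 had 19.5 CPM at 3 h and 14.6 CPM at 9 h, and its joined log2 fold change at 9 h was -1.48. The sign in the joined fit therefore cannot be told apart from the target set for targets with added copies. In the pair labelled replicate 2 at 9 h, the library labelled Multicilin, which held the dnE2f4-like e2f4 level, was lower for 25 of 25, where 46.9% of all targets were. The ratio of the library labelled Multicilin to the library labelled dnE2f4 was 0.440 to 0.728, with a median of 0.638.

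Other markers of multiciliated cells, taken as a list, also had lower means with dnE2f4, by unequal amounts. At 6 h ccdc67 had a mean of 97.8 CPM in dnE2f4 caps and 366 CPM in Multicilin caps, and rfx2 493 and 531 CPM. At 9 h rfx2 had 356 CPM in dnE2f4 caps and 362 CPM in Multicilin caps, and foxj1 1307 and 1505 CPM. The 6 symbols of that list (foxj1, mcidas, ccno, rfx2, tekt2 and ccdc67) are on 13 targets, and their summed level at 3, 6 and 9 h was 3593 to 4966, 4101 to 4912 and 3916 CPM in dnE2f4 caps and 6055 to 6823, 6304 to 7655 and 5141 to 6111 CPM in Multicilin caps. Of the 13 targets 2, 3 and 1 were called lower at these times, against 0.269, 2.57 and 0.918% of all targets. The mcidas transcript itself, which includes any injected Multicilin-HGR RNA that its targets take up, was at 930 to 1382, 904 to 1277 and 479 CPM in dnE2f4 caps and at 1543 to 1883, 1559 to 2060 and 750 to 1000 CPM in Multicilin caps. The neural list, of which 4 of 5 symbols were present, summed to 79.2 to 88.0 CPM in dnE2f4 caps and 155 to 163 CPM in Multicilin caps at 6 h. At 3 and 9 h it summed to 112.5 to 146.7 and 46.8 CPM in dnE2f4 caps and 141.0 to 202.7 and 78.1 to 108.1 CPM in Multicilin caps. At 6 h mean sox3 was 40.8 CPM in dnE2f4 caps and 90.7 CPM in Multicilin caps, and mean ncam1 41.3 and 66.2 CPM. The symbol neurog2 was at 0.258 CPM or less in every library of the fit. Of 5 neural targets tested 2 were called lower with dnE2f4 at 6 h, against 2.57% of all targets. The ectoderm and epidermis sum at 3, 6 and 9 h was 13530 to 14290, 22650 to 23810 and 28270 CPM in dnE2f4 caps and 14840 to 15320, 20750 to 21340 and 22790 to 24610 CPM in Multicilin caps. The 2 kinds of caps did not overlap on this library-size scale, the sum being lower with dnE2f4 at 3 h and higher at 6 and 9 h. Scaled by TMM, the normalization of the fit, they overlapped at 6 h, with 22710 to 23390 CPM in dnE2f4 caps and 21670 to 23480 CPM in Multicilin caps. The endoderm sum was 148 to 203, 92.6 to 98.2 and 59.3 CPM in dnE2f4 caps and 124 to 152, 67.2 to 90.4 and 35.9 to 42.0 CPM in Multicilin caps, higher with dnE2f4 at 6 and 9 h and overlapping at 3 h. By TMM the endoderm sums also overlapped at 6 h, with 92.7 to 98.4 CPM in dnE2f4 caps and 73.9 to 94.4 CPM in Multicilin caps. The mesoderm sum was 21.5 to 23.2, 1.31 to 4.13 and 3.62 CPM in dnE2f4 caps and 2.13 to 21.7, 1.87 to 4.41 and 3.91 to 8.98 CPM in Multicilin caps. The part of these differences in the dynein values was not tested.

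Further genes of the axoneme and of dynein assembly were taken from a list of 35 symbols, of which 25 were present and 39 targets were tested. From 3 to 9 h in Multicilin caps 35 of 39 rose and 1 fell, with a median log2 fold change of 2.41, where 33.4% of all targets rose and 32.8% fell. The largest rises were in hydin, a protein of the central pair of microtubules (5.19 ± 0.36), and in both copies of spag6, also of the central pair (5.02 ± 0.27 and 4.50 ± 0.23). Genes that place and regulate the inner arms rose too, among them ccdc40, part of the molecular ruler that spaces them, by 3.65 ± 0.21 and gas8, of the nexin-dynein regulatory complex, by 2.67 ± 0.15. The target that fell was a copy of dynll2, a light chain shared with other motors, by 2.60 ± 0.44 on the log2 scale.

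With dnE2f4, 0, 4 and 4 of these 39 targets were called lower at 3, 6 and 9 h, against 0.269, 2.57 and 0.918% of all targets. They were both copies of ruvbl1 and a copy of ruvbl2, ATPases that work with the assembly factors, and a copy of the assembly factor gene heatr2. At 6 h the log2 fold changes of these 4 were -0.65 ± 0.16, -0.66 ± 0.14, -0.79 ± 0.14 and -0.71 ± 0.11, and at 9 h -1.15 ± 0.24, -1.12 ± 0.21, -0.99 ± 0.21 and -0.90 ± 0.18 (edgeR adjusted p = 0.00591 to 0.0469). The other 35 were not called, hydin having -0.19 ± 0.29 and ccdc39, with ccdc40 part of the ruler, -0.19 ± 0.17 at 6 h.

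Cytoplasmic dyneins, which share the motor design but serve transport, were measured on 12 targets. From 3 to 9 h in Multicilin caps 7 rose and 3 fell, with a median log2 fold change of 0.75, beside the 33.4% of all targets that rose and 32.8% that fell. Subunits of the dynein that moves cargo inside cilia rose: wdr60 by 3.18 ± 0.20 and 1.88 ± 0.17, dync2li1 by 2.80 ± 0.19 and wdr34 by 1.75 ± 0.17. Of the dynein of the cell body, dync1i2 fell by 1.66 ± 0.13 and 1.23 ± 0.21 and dync1li1 fell by 1.98 ± 0.25 on the log2 scale, dync1li2 rose by 0.94 ± 0.22 and 1.24 ± 0.19, and dync1i1 rose by 0.57 ± 0.18. Neither target of the heavy chain dync1h1 was called, at -0.16 ± 0.67 and -0.17 ± 0.32. With dnE2f4 at 6 h 0 of 12 were called lower (2.57% of all targets) and dync1i1 was called higher (0.868%), at 0.76 ± 0.16 (edgeR adjusted p = 0.0228).

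E2f4-GFP peaks show where tagged E2f4 was recovered with DNA at 6 h. The authors called them on pooled replicates, 12778 with Multicilin and 15693 without it, so no replicate error can be given, and a difference between the sets has no test. Within 1000 bases of the start of the target, 11 of 25 dynein targets had a peak centre with Multicilin, where 19.7% of all targets did, and 9 of 25 without Multicilin, where 27.2% did. In either set 14 had a peak and 11 had none.

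Peaks were then counted by class. Of 9 assembly factors, 6 had a peak with Multicilin and 2 without it, of 8 intermediate and light chains 4 and 6, of 7 heavy chains 1 and 1, and ttc25 had none. The 5 targets with a peak in the Multicilin set alone were all assembly factors. The share of all targets with a peak in 1 set alone is not given here, so counts of this kind have no background. For dnaaf1, on scaffold 62355 of the JGIv7b assembly (660982 to 681012, plus strand), the peak at 660877 to 661087 was centred at the start itself. For dnaaf3 on scaffold 52341 (2148801 to 2197736, minus strand) the centre was 27 bases upstream, for zmynd10 on scaffold 187321 (3540864 to 3564409, plus strand) 61 bases downstream, and for dyx1c1 and spag1-2 26 bases downstream. Without Multicilin the nearest peaks of these 5 lay outside the window.

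**Figure D5:**
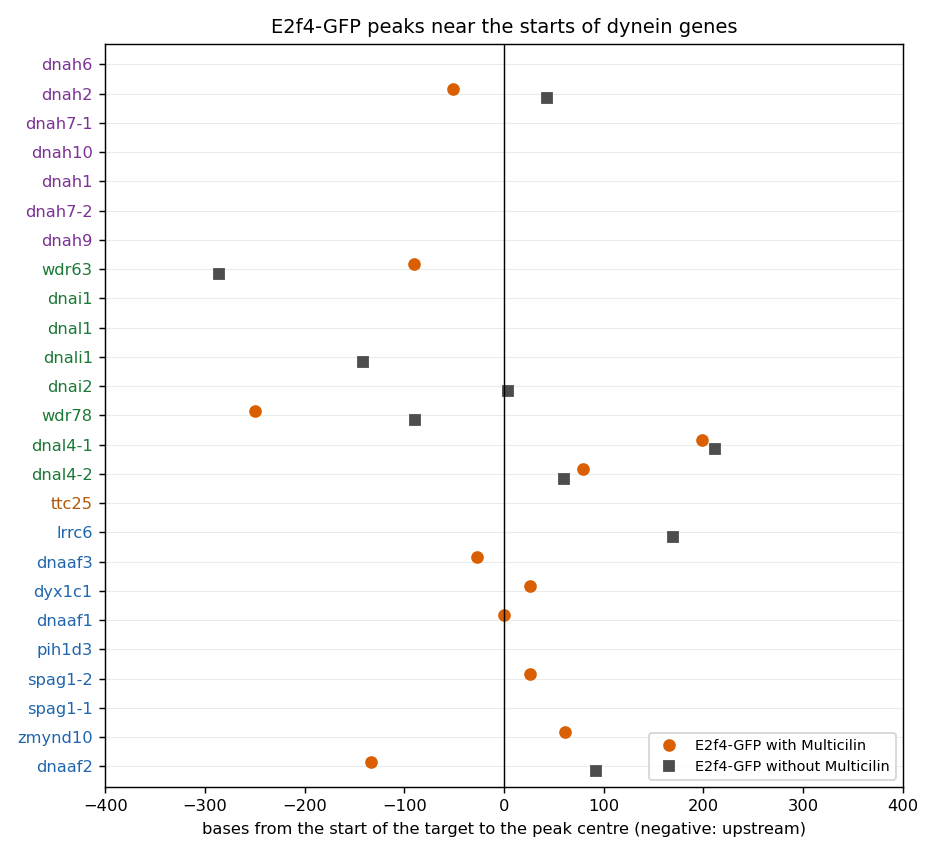
Distance in bases from the start of each target to the centre of a peak within 1000 bases, negative upstream, for E2f4-GFP with Multicilin (circles) and without Multicilin (squares), in the order of the plot of change with time. Peaks lie within 286 bases of the start, circles alone mark 5 assembly factors, and the only heavy chain with a peak is dnah2.

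Peaks in both sets were found for dnaaf2, dnah2, dnal4-1, dnal4-2, wdr63 and wdr78. The intervals of the 2 sets overlapped for these except dnaaf2, where the centre was 134 bases upstream of the start with Multicilin and 92 bases downstream without it. A peak in the set without Multicilin alone was found for dnai2, dnali1 and lrrc6, at 4 bases downstream, 142 bases upstream and 169 bases downstream of the start. The start of dnai2 lies 113 bases from that of ttyh2 on the other strand, and the start of wdr63 122 bases from that of mcoln3, so their peaks cannot be given to a single gene. The heavy chain dnah2, on scaffold 83691 (1603648 to 1717668, minus strand), had centres 51 bases upstream with Multicilin and 43 bases downstream without it.

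Set beside the RNA, the 11 targets with a peak in the Multicilin set had a median dnE2f4 log2 fold change of -0.53 at 3 h, -0.55 at 6 h and -0.68 at 9 h, and the 14 without one had -0.52, -0.34 and -0.45. Of the 3 called lower at 6 h, dnaaf1 and dnaaf2 had such a peak and lrrc6 had a peak only in the set without Multicilin. From 3 to 9 h in Multicilin caps the medians were 2.67 for the 11 with a peak and 3.41 for the 14 without. These medians are descriptions, and the members with a peak are mostly assembly factors and those without mostly heavy chains and intermediate or light chains.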

How the data were processed

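Per the file headers, the authors quantified each RNA library with eXpress, whose deposited estimated counts (expected counts) share fragments with several possible origins among targets and carry no normalization. The deposited uniquely assigned counts hold fragments that aligned to a single target, and the deposited FPKM values are scaled by effective length and library total, per the file headers. The submitters' processing notes also name the aligners STAR, Bowtie and Bowtie2 and the package DESeq, without a version or a role. Peaks were called by the authors with HOMER on pooled replicates against pooled input (FDR 0.001, at least 4-fold), per the file headers, and the deposited score of every peak is 1. The inputs were not analysed here. The RNA kit kept no strand, so overlapping genes on opposite strands share fragments.

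Estimated counts of 14 libraries (9159519 to 35101141 fragments) were rounded, filtered with filterByExpr, scaled by TMM and tested with edgeR 4.0.16 in R 4.3.3 (quasi-likelihood F test, robust, a mean per group). P-values were adjusted by Benjamini-Hochberg over the 20043 targets tested, and a target was called at an adjusted p under 0.05. CPM values were scaled by TMM over all 18 libraries, except the e2f4 and mcidas levels and the marker lists, which are CPM by library size alone, summed over the targets with those symbols. The fit was checked on simulated counts. DESeq2 1.42.0, other scalings, no filter, uniquely assigned counts, the other target set, other sets of libraries and a replicate block were tried as alternatives. A peak was assigned to a target when its centre lay within 1000 bases of the target's 5′ end. Intervals of counting error are not given, since the spread between libraries exceeds them.

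The labels give replicate numbers whose meaning they leave unstated, and do not say that replicates came from separate clutches, so p-values measure the spread between these libraries. Deviations from the group mean over all targets correlated between same-numbered dnE2f4 and Multicilin libraries at 0.162 and 0.278 at 3 h. At 6 h these values were 0.68, 0.424 and 0.463, and different numbers had -0.503 to 0.175 over both times. The numbers were taken to pair the libraries on this ground. Deviations cancel within a group, which pushes the values of different numbers down. At 3 h, with 2 dnE2f4 libraries, the values mirror each other, so the pairing is an assumption. At 9 h a lone dnE2f4 library left nothing to check. No 2 libraries of a group agreed within counting noise (lowest chi-square per degree of freedom 14.7).

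The genes, the pathway and marker lists and the tests were chosen with earlier results of these data known. Named with values are the targets called for dnE2f4, in each class the 4 with the highest mean FPKM and the 3 with the largest and smallest change from 3 to 9 h in Multicilin caps, those with a peak near the start, and a panel (dnah9, dnah7, dnai1, dnai2, dnal1, dnali1, dnaaf1, dnaaf2, zmynd10, lrrc6). Library examples at single times were chosen after their values were seen.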

Additional observations from a re-analysis of the deposited data

Results flagged for a closer look

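The docking protein gene armc4, whose product helps fix outer dynein arms to the doublet, was listed only in the 2 libraries scored against the other target set, so it entered no comparison. It had 834 estimated fragments in dnE2f4 replicate 1 at 3 h, or 47.2 CPM scaled by library size and 13.8 FPKM. It had 29100 estimated fragments in dnE2f4 replicate 3 at 9 h, or 764 CPM and 230 FPKM. Both values are above the 3 fragments that a count of 0 allows. With 1 library at each time, and no Multicilin library on that target set, neither the change with time nor the effect of dnE2f4 on armc4 was tested.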

How the results depend on the processing

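The 25 rises from 3 to 9 h and the 25 from 3 to 6 h stayed at 25 of 25 in both kinds of caps without each library in turn and under the alternatives run, except that 24 rose joined by position from 3 to 6 h in Multicilin caps and from 3 to 9 h in dnE2f4 caps; summed by symbol 18 of 18 rose. The counts lower with dnE2f4 did not hold. At 3 h, against 0, they were 6 with DESeq2, 7 with the replicate block and 6 with a replicate block within each time. At 6 h, against 3, they were 8 with DESeq2, 12 with the replicate block, 17 with a replicate block within each time, 1 with library size only, 1 with the compared groups only, 1 summed by symbol, 0 with labels as deposited and 0 joined by position. Over all targets the fit called 516 of 20043 lower at 6 h. Library size only called 384 of 20043, the compared groups only 356 of 17864 and the join by position 222 of 19704. The sum by symbol called 275 of 11111 symbols lower. With labels as deposited 0 of 19567 targets were called in either direction at 3, 6 and 9 h. At 9 h, against 0, the sum by symbol called 1, where 315 of 11111 symbols were called lower. DESeq2 and the replicate block also called some at 9 h, from the single dnE2f4 library. The block within each time compared 1 library with 1 there. Leaving out a library in turn gave 0 to 4 at 3 h, 0 to 4 at 6 h and 0 to 2 at 9 h; without dnE2f4 replicate 1 at 9 h no 9 h value for dnE2f4 could be had. From 6 to 9 h, against 17 in Multicilin caps, 7 were called with labels as deposited, 11 joined by position, 24 with the replicate block and 9 summed by symbol, and 9 to 18 without a library. Against 7 in dnE2f4 caps, 4 were called with library size only, 14 with labels as deposited, 13 with the replicate block and 13 joined by position, and 2 to 9 without a library. Over all targets, 2863 of 20043 were called higher from 6 to 9 h in Multicilin caps in the fit. Labels as deposited gave 2339 of 19567, the join by position 1871 of 19704, and the sum by symbol 1401 of 11111 symbols. In dnE2f4 caps the fit gave 1899 of 20043 and library size only 1433 of 20043. Labels as deposited gave 2523 of 19567 there and the join by position 2257 of 19704. Leaving out a library in turn gave 1 to 199 lower with dnE2f4 over all targets at 3 h and 179 to 538 at 6 h. For the counts without a library from 6 to 9 h, and for dnE2f4 at 9 h, the same over all targets is not given here. Those counts therefore have no background, and some of these fits held 1 library in a group. Some signs turned in values that were not called. With labels as deposited at 9 h they were 0.148 (dnah1), 0.027 (dnah10), 0.08 (dnah2), 0.082 (dnah6), 0.152 (dnah7-1), 0.191 (dnah7-2), 0.152 (dnah9) and 0.033 (spag1-1), the fit that holds the pair opposite to its labels. Without a library in turn dnah2 had -0.674 to 0.11 and dnah7-2 -0.4 to 0.314 at 9 h, the highest without replicate 1 of Multicilin at 9 h. At 3 h dnah6 had -0.652 to 0.066 and dnah7-1 -0.474 to 0.113, the highest without replicate 2 of Multicilin at 3 h. With library size only dnah7-2 had 0.073 at 9 h. Summed by symbol dnah6 had 1.01 at 3 h and 0.13 at 9 h, because that symbol includes the dnah2 target in the other target set. Joined by position zmynd10 had -0.79 from 6 to 9 h in dnE2f4 caps. The other target set holds an added copy of zmynd10, and the part of that copy in this value was not tested. The join by position and the block within each time were chosen after seeing the data. Scaling by library size alone moved the median of all targets to 0.12 at 6 h and 0.18 at 9 h for dnE2f4 and to -0.28 (dnE2f4 caps) and -0.46 (Multicilin caps) from 3 to 9 h. Peaks without Multicilin over the start itself numbered 5, against 9 within 1000 bases, where 12.7 and 27.2% of all targets had one. With Multicilin they numbered 8, against 11, where 8.56 and 19.7% of all targets had one. With the block, 0 of 25 differed in the dnE2f4 effect between 3 and 6 h, where 33 of 20043 targets were called higher and 15 lower. The contrasts with 9 h rest on the single dnE2f4 library. The cause of the other changes was not tested.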
